A study of Mus musculus with 6 samples.

Results

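The 10 genes described here, Notch1, Notch2, Notch3, Notch4, Dll1, Dll4, Jag1, Rbpj, Hes1 and Hey1, are the Notch receptors, ligands and nuclear effectors chosen by gene symbol from the 24421 genes listed for each library. All 10 were listed, and 9 had enough counts for the test between groups. The libraries measured polyadenylated RNA of LSECs, primary sinusoidal endothelial cells of mouse liver, which form the fenestrated wall of the hepatic sinusoids. The pressure group (n = 3) was loaded for 8 h with hydrostatic pressure that went up and down between 101 kPa and 135 kPa in absolute terms, at 0.01 Hz, and the control group (n = 3) was not. Cells of both groups carried the genotype label wild, were selected from liver with beads against CD146, a surface protein of endothelial cells, kept on collagen I overnight and starved of serum for 6 h, and all 6 libraries share a single batch label. No age or sex of the mice is labelled. How long control cells were cultured, and how they were handled meanwhile, is not labelled, so such a difference cannot be told apart from pressure. Whether replicates are separate cultures or animals is not labelled either; p-values therefore reflect the spread among these 6 samples alone, and that spread may be technical.

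Notch signalling is a contact signal between neighbouring cells. A ligand of the Delta-like or Jagged family on the sending cell pulls on a Notch receptor, ADAM proteases and the gamma-secretase complex then cut the receptor, and its intracellular domain joins the DNA-binding protein RBPJ and Mastermind coactivators in the nucleus. Without that domain RBPJ holds corepressors at the same sites. The HES and HEY repressors are the classical transcriptional targets. In endothelium the pathway is known for the choice between tip and stalk cells in sprouting vessels, for arterial identity and for its response to blood flow, and in the liver for bile duct formation and for the maintenance of sinusoidal endothelium.

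Library totals lay between 12922959 and 18655749 counts. Levels are in CPM, computed with library sizes scaled by TMM factors, which take most genes as unchanged. These factors were 0.909 to 0.946 in pressure libraries and 1.074 to 1.083 in control libraries. Fold changes are log2 of pressure over control with their standard error, and p-values are those of edgeR's quasi-likelihood test adjusted by the Benjamini-Hochberg method across the 12892 genes tested, called at 0.05. With 68.8% of the genes tested called, the assumption behind the TMM factors may not hold. In bulk RNA, fewer cells of a type and less RNA per cell cannot be told apart. The 9 sinusoidal endothelial markers examined were all above 1 CPM and summed to 2934 to 3249 CPM in pressure libraries and 4819 to 4964 CPM in control libraries. Of them, 6 were called lower, as were 35.1% of all genes tested, and 3 were not called (Lyve1, Gata4 and Dnase1l3). The 9 macrophage markers summed to 5172 to 5605 CPM in pressure libraries and 5426 to 5962 CPM in control libraries. Within that list, Csf1r and Marco were called higher, Cd5l and Vsig4 lower, and 5 were not called. Pressure replicate 3 stood apart from pressure replicates 1 and 2 by gene length. Its log2 difference from their mean had a median of 0.17 in the shortest and -0.19 in the longest of 4 equal classes of genes by exonic length. Results that rest on this library are given below with and without it.

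The start regions of the members that differed most are shown because RBPJ, HES and HEY proteins bind short DNA words that can be looked for in them. RefSeq windows on GRCm38.p6, from 250 bases before to 50 bases after a start, were matched by symbol for 8 of the 10 members (10 windows), and none was used for Hes1 or Hey1. Each is written 5′ to 3′ on the strand of the gene, with matches in capitals. The motifs searched on both strands were the RBPJ core TGGGAA, the HES and HEY class C word CACGCG and the E-box CACGTG, and no match overlapped another. The window of Rbpj lies at chr5:53590096-53590395 (+ strand), that of Dll1 at chr17:15376883-15377182 (- strand) and that of Notch4 at chr17:34564045-34564344 (+ strand).
Rbpj: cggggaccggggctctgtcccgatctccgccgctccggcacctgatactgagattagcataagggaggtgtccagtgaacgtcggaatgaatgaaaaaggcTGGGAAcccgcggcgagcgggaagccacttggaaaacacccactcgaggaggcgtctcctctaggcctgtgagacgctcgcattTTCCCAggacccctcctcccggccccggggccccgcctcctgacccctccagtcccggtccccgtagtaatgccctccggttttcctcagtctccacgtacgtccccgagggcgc
Dll1: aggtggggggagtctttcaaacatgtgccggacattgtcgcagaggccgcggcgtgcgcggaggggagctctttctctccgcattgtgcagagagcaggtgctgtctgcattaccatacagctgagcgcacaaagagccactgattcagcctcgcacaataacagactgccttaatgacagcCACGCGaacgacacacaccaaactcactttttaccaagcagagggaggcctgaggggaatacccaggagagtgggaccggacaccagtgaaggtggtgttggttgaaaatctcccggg
Notch4: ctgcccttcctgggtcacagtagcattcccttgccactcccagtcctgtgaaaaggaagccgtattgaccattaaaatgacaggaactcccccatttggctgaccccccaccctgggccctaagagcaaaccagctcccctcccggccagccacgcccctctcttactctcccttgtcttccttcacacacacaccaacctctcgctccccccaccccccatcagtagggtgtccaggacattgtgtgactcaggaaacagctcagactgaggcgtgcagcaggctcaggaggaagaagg

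The Rbpj window held 2 RBPJ cores, starting at bases 102 and 186 and lying on opposite strands. A second, overlapping Rbpj window held the core of base 186 again, at its own base 46. No RBPJ core was present in the windows of the other 7 members. Dll1 also had a second window, at chr17:15375774-15376073 (- strand), that held none of the 3 motifs. The class C word occurred once in the printed window of Dll1 and in those of Notch2 and Dll4, 2 times in that of Jag1 and not in those of Notch1, Notch3, Notch4 or Rbpj, and no window of these genes held the E-box. Of all 32851 windows of the table, 25.6% held the RBPJ core, 9.27% the class C word and 7.15% the E-box. The windows of these genes were 55.7% to 73.0% G and C, against a median of 52.7% over all windows. Such a match is a description of letters, not evidence of binding.

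Among the 9 tested genes, 5 passed as higher under pressure (Notch1, Notch2, Dll1, Rbpj and Hey1), 1 passed as lower (Notch4) and 3 did not pass (Dll4, Jag1 and Hes1). Over all genes tested, 68.8% passed in either direction, 33.7% as higher and 35.1% as lower, so 6 passing genes among 9 are close to the background. The groups did not overlap for 4 of the 9 genes, 3 higher and 1 lower, against 71.9% of all genes. The median log2 fold change was 0.31 over the 9 genes and -0.015 over all genes tested. Scaling to library totals only moved the median of all genes to -0.23 and the share of higher genes among those called to 34.7%, from 49% with TMM factors. Under that scaling 24.3% of all genes passed as higher and 45.7% as lower, and 2 of these genes passed as higher (Dll1 and Rbpj) and 2 as lower (Notch4 and Hes1). Notch4, Dll1 and Rbpj were called in the same direction under every alternative in which they were tested, 17 for Notch4 and Rbpj and 16 for Dll1. The calls of Notch1, Notch2 and Hey1 were not stable in this way.

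**Figure D1:**
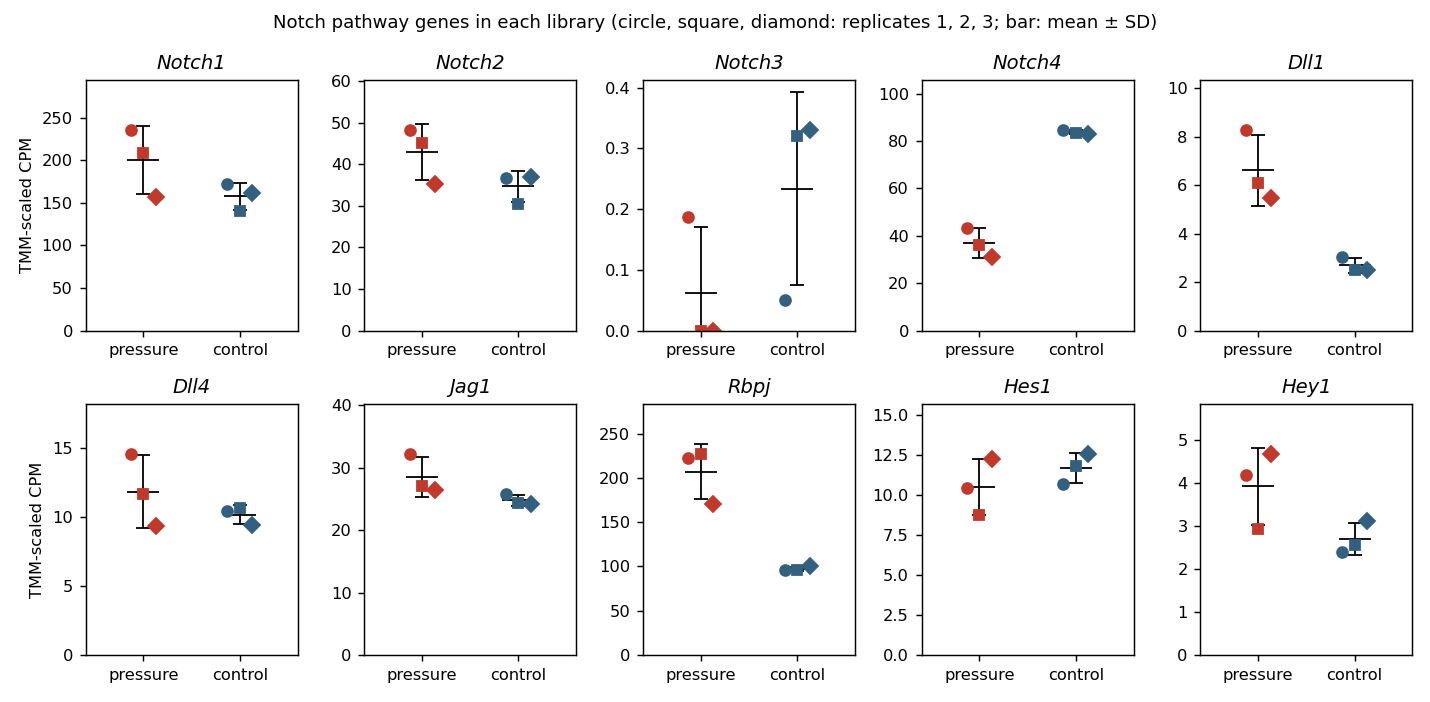
Level of each member in the 3 pressure and 3 control libraries, in TMM-scaled CPM with a vertical axis of its own for each gene; circles, squares and diamonds are replicates 1, 2 and 3, and bars are mean ± SD (n = 3). Notch4 lies lower and Dll1, Jag1 and Rbpj lie higher in every pressure library, Jag1 by a small gap, while the points of the other genes overlap.

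Of the receptors, Notch4 fell while Notch1 and Notch2, the other receptors above 1 CPM, had slightly higher means under pressure. Notch4, a receptor found mainly in endothelium (chr17:34564268-34588503, + strand), was at 43.4, 36.0 and 30.9 CPM in pressure replicates 1, 2 and 3, against 84.7, 83.5 and 82.9 CPM in control replicates 1, 2 and 3. Every pressure library lay below every control library, and the control values were close to each other. The mean was 36.8 ± 6.28 CPM under pressure and 83.7 ± 0.894 CPM in control (SD, n = 3 each), a 2.27-fold lower level (log2 fold change -1.18 ± 0.11, adjusted p = 6.58e-06 by edgeR). Over 17 alternatives its log2 fold change ranged between -1.40 and -1.07.

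Notch1, the receptor with the highest count here and a known sensor of laminar flow in arterial endothelium (chr2:26457903-26516663, - strand), was at 236, 208 and 157 CPM in pressure replicates 1, 2 and 3, against 172, 141 and 161 CPM in control replicates 1, 2 and 3. Pressure replicates 1 and 2 lay above all control libraries, and pressure replicate 3 lay within their range. The log2 fold change was 0.34 ± 0.14 (adjusted p = 0.0422 by edgeR), and Notch1 was called in 9 of 17 alternatives. Without pressure replicate 3 it was 0.49 (adjusted p = 1.89e-06 by edgeR). The call was lost without control replicate 2, control replicate 3, pressure replicate 1 or pressure replicate 2, with edgeR adjusted p-values of 0.151, 0.0864, 0.167 and 0.115, and with library totals only (log2 fold change 0.13, adjusted p = 0.391). An offset for exonic length gave 0.28 (adjusted p = 0.00639 by edgeR). The count of Notch1 was fractional in pressure replicate 1 (3782.5). Exons of Notch1 share 1482 bases with 2 noncoding genes of the opposite strand, whose reads cannot be told apart where the strand setting of the counting is not given.

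Notch2, the receptor whose loss in the embryonic liver impairs bile duct formation (chr3:98013527-98150361, + strand), was at 48.3, 45.1 and 35.3 CPM in pressure replicates 1, 2 and 3, against 36.8, 30.3 and 36.9 CPM in control replicates 1, 2 and 3. As for Notch1, pressure replicate 3 fell inside the control range and the other pressure libraries above it. The log2 fold change was 0.31 ± 0.13, with an edgeR adjusted p of 0.04999, just under the threshold. It was called in 7 of 17 alternatives. Without pressure replicate 3 the log2 fold change of Notch2 was 0.43 (adjusted p = 0.000123 by edgeR), and without control replicate 1, control replicate 2, control replicate 3, pressure replicate 1 or pressure replicate 2 the gene was not called (edgeR adjusted p 0.0729, 0.189, 0.0696, 0.17 and 0.142). With library totals only it was 0.09 (adjusted p = 0.513 by edgeR). Exons of Notch2 share 541 bases with another annotated gene of the same strand.

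Notch3, the receptor of mural cells (chr17:32120820-32166852, - strand), was too low to test. It had 3, 0 and 0 counts in pressure replicates 1, 2 and 3, against 1, 6 and 5 counts in control replicates 1, 2 and 3. A count of 0 allows a level of up to 0.182 CPM in pressure replicate 2 and 0.245 CPM in pressure replicate 3 (3 counts, counting error only). The stellate, mural and smooth muscle markers summed to 179 to 196 CPM in pressure libraries and 178 to 190 CPM in control libraries, most of it from Dcn. Within this list Dcn was called higher (132 ± 4.76 CPM under pressure and 104 ± 3.85 CPM in control), while Acta2 (1.22 and 2.70 CPM), Des (2.09 and 4.90 CPM), Kcnj8 (11.7 and 25.6 CPM) and Tagln (7.09 and 9.94 CPM, means under pressure and in control) were called lower without overlap. The other 3 of the 8 tested markers were not called and overlapped. They were Pdgfrb (9.57 and 9.48 CPM), Rgs5 (2.75 and 2.45 CPM) and Reln (20.5 and 25.2 CPM, means under pressure and in control). Over all genes tested, 33.7% were called higher, 35.1% were called lower and 71.9% did not overlap. The part of the cells behind these markers in the counts of Notch3 was not tested.

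The make-up of the receptor transcripts differed between the groups in each library. After scaling counts to exonic length, Notch4 made up 20.4, 19.2 and 21.2% of receptor counts in pressure replicates 1, 2 and 3, against 40.4, 44.9 and 41.0% in control replicates 1, 2 and 3. Notch1 made up 62.6, 62.8 and 60.8% in pressure replicates 1, 2 and 3, against 46.4, 42.8 and 45.2% in control replicates 1, 2 and 3. Neither pair of groups overlapped, and these shares do not depend on how library sizes are scaled. The difference of pressure minus control was -21.8 points for Notch4, 17.3 points for Notch1 and 4.66 points for Notch2, whose share was 17.7 ± 0.627% under pressure and 13 ± 0.747% in control (SD, n = 3 each). An exact permutation test over the samples gave p = 0.1 for each of these 3 shares, the smallest p that 3 against 3 samples allow, and 0.117 after adjustment over the 7 shares tested. Shares of a library add up to the whole, so the higher shares of Notch1 and Notch2 are not separate from the lower share of Notch4. Without pressure replicate 3 the difference was 17.9 points for the share of Notch1 among receptors and -22.3 points for the share of Notch4 among receptors. In unscaled counts, there were 0.184, 0.173 and 0.198 Notch4 counts per Notch1 count in pressure replicates 1, 2 and 3, against 0.494, 0.594 and 0.515 in control replicates 1, 2 and 3.

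**Figure D2:**
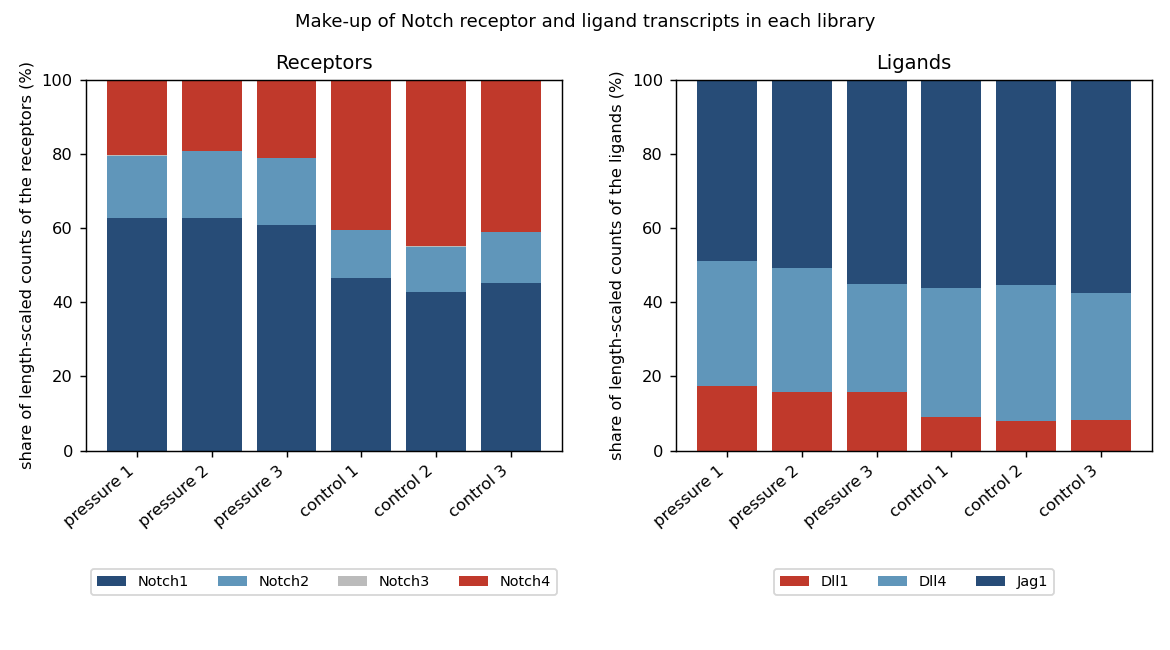
Share of length-scaled counts (%) taken by each Notch receptor, left, and each ligand, right, in the 3 pressure and then the 3 control libraries. Notch4 takes 19.2 to 21.2% of receptor counts in pressure libraries and 40.4 to 44.9% in control libraries, and Dll1 takes 15.8 to 17.5% of ligand counts in pressure libraries and 7.88 to 9.17% in control libraries.

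Of the ligands, Dll1 rose under pressure and Dll4 and Jag1 did not pass the test. Dll1, a Delta-like ligand (chr17:15367354-15376872, - strand), was at 8.29, 6.08 and 5.49 CPM in pressure replicates 1, 2 and 3, against 3.05, 2.51 and 2.51 CPM in control replicates 1, 2 and 3. All pressure libraries lay above all control libraries. The mean was 6.62 ± 1.48 CPM under pressure and 2.69 ± 0.311 CPM in control (SD, n = 3 each), 2.46-fold higher (log2 fold change 1.30 ± 0.20, adjusted p = 0.00016 by edgeR). These levels rest on 300 counts in all under pressure and 146 in control. The range of its log2 fold change was 1.08 to 1.41 over 16 alternatives, and a filter at a mean of 5 CPM removed the gene. Exons of Dll1 share 867 bases with a noncoding gene of the opposite strand.

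Dll4, the Delta-like ligand of arterial and tip cells (chr2:119325784-119335962, + strand), was at 14.6, 11.7 and 9.33 CPM in pressure replicates 1, 2 and 3, against 10.5, 10.7 and 9.45 CPM in control replicates 1, 2 and 3. Pressure replicate 1 was highest and pressure replicate 3 lowest of all 6, so the groups overlapped. The log2 fold change was 0.22 ± 0.16 (95% interval -0.12 to 0.57, adjusted p = 0.222 by edgeR). Without pressure replicate 3 Dll4 passed with a log2 fold change of 0.36 (adjusted p = 0.0132 by edgeR). Without pressure replicate 1 the value was 0.05 (adjusted p = 0.762 by edgeR), and with library totals only it was 0.008 (adjusted p = 0.964 by edgeR). Exons of Dll4 share 214 bases with a noncoding gene of the opposite strand. Its counts were fractional in every library except control replicate 3, so reads may have been split here too.

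Jag1, the Jagged ligand mutated in Alagille syndrome of the bile ducts (chr2:137081456-137116644, - strand), was at 32.2, 27.0 and 26.4 CPM in pressure replicates 1, 2 and 3, against 25.8, 24.4 and 24.1 CPM in control replicates 1, 2 and 3. The groups did not overlap, but pressure replicate 3 lay close to control replicate 1. The log2 fold change was 0.21 ± 0.10 (95% interval -0.02 to 0.43, adjusted p = 0.0971 by edgeR). Jag1 passed without pressure replicate 3 (log2 fold change 0.26, adjusted p = 0.0197 by edgeR), but its log2 fold change was 0.11 without pressure replicate 1 (adjusted p = 0.338 by edgeR), and with library totals only its sign turned (-0.0094).

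Among the ligand transcripts, scaled to exonic length, Dll1 made up 17.4, 15.8 and 15.8% in pressure replicates 1, 2 and 3, against 9.17, 7.88 and 8.28% in control replicates 1, 2 and 3. Dll4 made up 32.0 ± 2.43% under pressure and 35.1 ± 1.32% in control, and Jag1 51.6 ± 3.07% under pressure and 56.4 ± 1.08% in control (SD, n = 3 each). None of the 3 shares overlapped between the groups, with differences of 7.90, -3.10 and -4.79 points for Dll1, Dll4 and Jag1 (exact permutation p = 0.1 for each, adjusted 0.117). Shares of a library add up to the whole, so the lower shares of Dll4 and Jag1 are not separate from the higher share of Dll1. In CPM, Dll4 and Jag1 had slightly higher means under pressure. Without pressure replicate 3 the difference was -1.70 points for the share of Dll4 among ligands and -6.49 points for the share of Jag1 among ligands. Among these 3 ligands, Jag1 was the most abundant and Dll1 the least abundant in every library. For bile duct cells, which also carry Notch ligands, 8 cholangiocyte markers summed to 10.3 to 12.9 CPM in pressure libraries and 5.75 to 6.01 CPM in control libraries. Of these, Spp1 was the largest part, at 6.23 to 7.45 CPM in pressure libraries and 3.15 to 3.65 CPM in control libraries. Epcam (1.76 and 0.587 CPM) and Sox9 (1.56 and 0.661 CPM, means under pressure and in control) did not overlap either. These 3 of the 4 tested markers were called higher, against 33.7% of all genes, and Cldn4 was not called. Krt19 and Krt7 were under 1 CPM in every library and overlapped, Krt7 with a lower mean under pressure (0.116 and 0.188 CPM), and Tff2 was at 0. Their part in the Dll1 result was not tested.

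Rbpj, the DNA-binding effector shared by all receptors (chr5:53466152-53657362, + strand), rose under pressure. It was at 223, 227 and 171 CPM in pressure replicates 1, 2 and 3, against 96.0, 95.9 and 100.2 CPM in control replicates 1, 2 and 3. All pressure libraries lay well above the narrow range of the control libraries, and pressure replicate 3 was the lowest of its group. The mean was 207 ± 31.2 CPM under pressure and 97.4 ± 2.47 CPM in control (SD, n = 3 each), 2.12-fold higher (log2 fold change 1.09 ± 0.11, adjusted p = 8.03e-06 by edgeR). Over 17 alternatives the log2 fold change of Rbpj ranged between 0.87 and 1.21. The annotation holds 3 pseudogenes named after Rbpj, and its counts were fractional in some libraries, so reads may have been split and its level is uncertain. Its start region, printed above, was the only one among the 8 genes with a window that held an RBPJ core. Of all windows, 25.6% held that core, and its part in the level of Rbpj was not tested.

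Of the target repressors, Hey1 passed as higher and Hes1 did not pass. Hes1, a HES repressor that also answers to other signals (chr16:30064384-30067796, + strand), was at 10.5, 8.75 and 12.3 CPM in pressure replicates 1, 2 and 3, against 10.7, 11.8 and 12.6 CPM in control replicates 1, 2 and 3. The groups overlapped, and the log2 fold change was -0.16 ± 0.14 (95% interval -0.47 to 0.15, adjusted p = 0.33 by edgeR). Hes1 passed as lower only with library totals (log2 fold change -0.37, adjusted p = 0.0399 by edgeR), out of the 17 alternatives. Its log2 fold change was -0.27 without pressure replicate 3 (adjusted p = 0.0628 by edgeR) and -0.04 without pressure replicate 2 (adjusted p = 0.823 by edgeR).

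Hey1, a HEY repressor of endothelial cells (chr3:8663359-8667256, - strand), was at 4.17, 2.92 and 4.67 CPM in pressure replicates 1, 2 and 3, against 2.40, 2.56 and 3.11 CPM in control replicates 1, 2 and 3. Pressure replicate 2 lay within the control range and the other pressure libraries above it. The log2 fold change was 0.54 ± 0.21 (adjusted p = 0.0435 by edgeR), from 172 counts in all under pressure and 143 in control. Hey1 was called in 7 of 16 alternatives; it was lost by DESeq2 (adjusted p = 0.0558) and limma-voom (adjusted p = 0.0563). It was also lost without control replicate 1, control replicate 2, pressure replicate 1 or pressure replicate 3 (edgeR adjusted p 0.143, 0.112, 0.113 and 0.0942). Within a library, there were 0.399, 0.333 and 0.380 Hey1 counts per Hes1 count in pressure replicates 1, 2 and 3, against 0.224, 0.217 and 0.247 in control replicates 1, 2 and 3. This ratio did not overlap between the groups, but it was not tested, and the levels of Hey1 and of Hes1 each overlapped. Among all genes tested, the levels of 71.9% did not overlap.

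**Figure D3:**
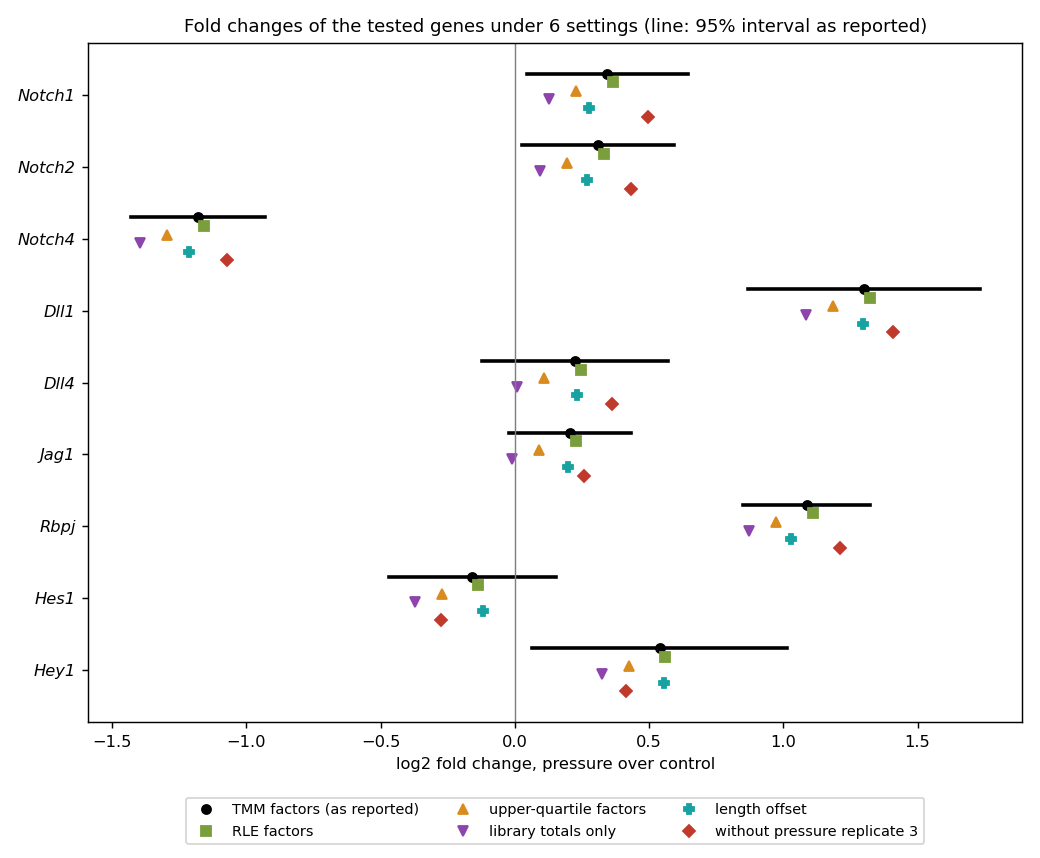
Log2 fold change of pressure over control for the 9 tested members under 6 settings, with the 95% interval of the reported value as a line. Every setting places Notch4 below 0 and Dll1 and Rbpj above it, while Notch1, Notch2, Dll4, Jag1 and Hes1 lie nearer to 0, and Dll4 and Jag1 lie at 0.008 and -0.0094 with library totals only.

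The order of the levels was compared per length, in CPM per kb of exonic length. Under pressure the order was Rbpj (16.2 ± 2.44), Notch1 (14.1 ± 2.82), Hes1 (5.15 ± 0.866), Jag1 (4.90 ± 0.541), Notch4 (4.57 ± 0.778), Notch2 (3.98 ± 0.629), Dll4 (3.08 ± 0.682), Dll1 (1.57 ± 0.350), Hey1 (1.20 ± 0.276) and Notch3 (0.0077 ± 0.0133). In control it was Notch1 (11.1 ± 1.11), Notch4 (10.4 ± 0.111), Rbpj (7.64 ± 0.193), Hes1 (5.73 ± 0.459), Jag1 (4.25 ± 0.154), Notch2 (3.22 ± 0.350), Dll4 (2.65 ± 0.171), Hey1 (0.823 ± 0.113), Dll1 (0.637 ± 0.0737) and Notch3 (0.0289 ± 0.0197), all mean ± SD with n = 3. Under pressure the ranges of most neighbours in this order overlapped; gaps lay only between Notch1 and Hes1, between Dll4 and Dll1 and between Hey1 and Notch3. In control the ranges of Notch1 and Notch4 overlapped and those of no other neighbours did. Notch4 was the second of the 10 genes in control and the fifth under pressure. The order depends on the length used: per kb of the longest coding transcript, Rbpj came first in both groups (37.9 under pressure and 17.8 in control, against 21.1 under pressure and 16.6 in control for Notch1), and Notch4 was the third in control and the fourth under pressure.

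Pressure replicate 3 had lower levels of the long members and higher levels of the shortest. Its log2 difference from the mean of pressure replicates 1 and 2 was -0.50 for Notch1 (14232 exonic bases), -0.40 for Notch2 (10782 bases), -0.39 for Rbpj (12750 bases) and -0.35 for Notch4 (8061 bases). The difference was 0.34 for Hes1 (2037 bases) and 0.37 for Hey1 (3265 bases), the shortest of the 10 genes. Dll4 (3852 bases) did not follow this order, at -0.46, nor did Dll1 (4219 bases), at -0.35. Over all genes, the median difference was 0.17, 0.06, -0.04 and -0.19 in the 4 classes, from short to long genes. With an offset for length, added after seeing the data, 5 of these genes were called higher and 1 lower.

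**Figure D4:**
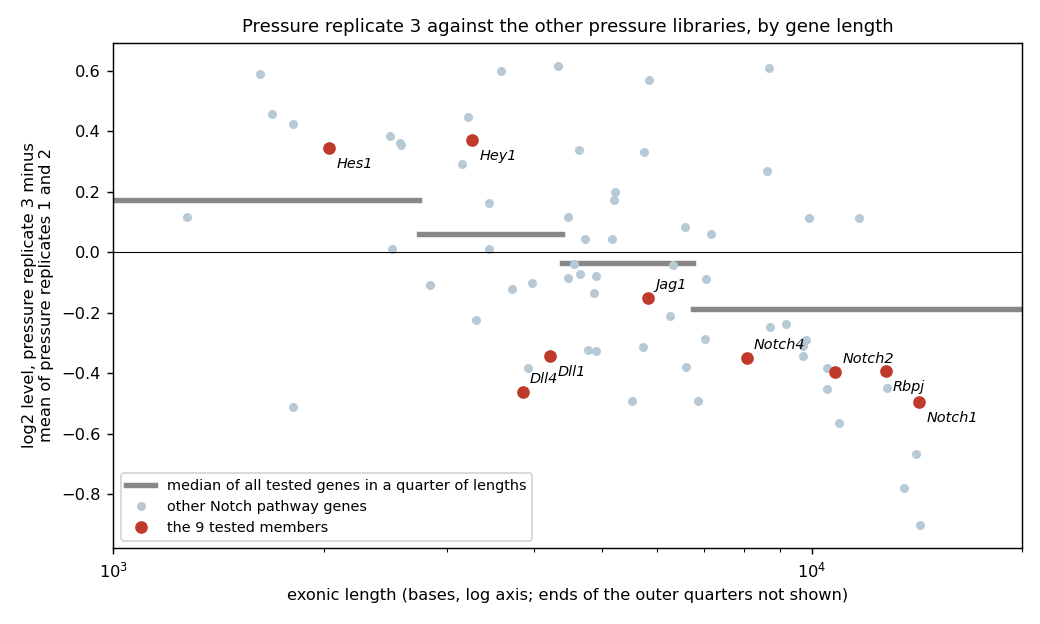
Log2 difference of pressure replicate 3 from the mean of pressure replicates 1 and 2 (vertical axis) against exonic length in bases (horizontal log axis) for the members, with the medians of all genes in 4 classes of length. The long receptor genes and Rbpj lie at -0.35 to -0.50 and Hes1 and Hey1 at 0.34 and 0.37.

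Another 76 genes of the pathway in 8 lists by role place these members. Of the 61 tested, 16 passed as higher, 25 as lower and 20 did not pass, with a median log2 fold change of -0.12. Against the background given above (33.7% higher and 35.1% lower), the whole set was close to other genes. With library totals only the counts were 12 higher and 32 lower.

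All 6 genes of receptor glycosylation fell, with no overlap between groups and a median log2 fold change of -0.76, and each was called as lower in all 17 alternatives. Over all genes tested, 35.1% passed as lower and 71.9% did not overlap in either direction. These enzymes add sugars to the extracellular repeats of Notch and set which ligands bind. Mfng, a Fringe glycosyltransferase, was at 5.17, 4.62 and 4.50 CPM in pressure replicates 1, 2 and 3, against 29.6, 34.0 and 25.4 CPM in control replicates 1, 2 and 3. Every pressure library was far below every control library, a 6.21-fold lower mean (log2 fold change -2.63 ± 0.14, adjusted p = 1.97e-07 by edgeR). Lfng, another Fringe, was at 16.4, 17.8 and 17.2 CPM in pressure replicates 1, 2 and 3, against 29.7, 36.0 and 25.6 CPM in control replicates 1, 2 and 3 (log2 fold change -0.83 ± 0.13, adjusted p = 0.0002 by edgeR). The pressure values of Lfng were tightly grouped and the control values were not. Pofut1, the O-fucosyltransferase that the Fringe enzymes build on, averaged 40.4 ± 1.96 CPM under pressure and 57.4 ± 1.55 CPM in control, and Poglut1, the O-glucosyltransferase, 35.5 ± 1.99 CPM under pressure and 51.9 ± 1.73 CPM in control (log2 fold changes -0.51 ± 0.08 and -0.55 ± 0.08, edgeR adjusted p 0.000221 and 0.00018). The remaining genes of this list, Rfng and Eogt, had log2 fold changes of -0.76 each.

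In receptor and ligand processing, 2 of 10 genes rose and 4 fell, against 33.7% and 35.1% of all genes tested. Psen2, a catalytic subunit of the gamma-secretase complex, was at 44.6, 46.9 and 70.4 CPM in pressure replicates 1, 2 and 3, against 125, 131 and 129 CPM in control replicates 1, 2 and 3. All pressure libraries were lower, and pressure replicate 3 was nearest to the controls (log2 fold change -1.26 ± 0.15, adjusted p = 3.02e-05 by edgeR). Psenen, a small subunit of that complex, and Furin, the convertase that cuts the receptor on its way to the surface, fell with log2 fold changes of -0.44 ± 0.08 and -0.55 ± 0.10 (edgeR adjusted p 0.000428 and 0.000421). Ncstn, a gene of this list named after its values were seen, was called higher, at 212 ± 8.63 CPM under pressure and 182 ± 7.23 CPM in control. Its log2 fold change was 0.22 ± 0.07 (adjusted p = 0.0194 by edgeR), and it was called in 10 of 17 alternatives. Aph1a, Aph1b, Aph1c and Adam17 did not pass.

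In ligand endocytosis and receptor turnover, 1 of 14 tested genes was called higher and 6 fell, against 33.7% and 35.1% of all genes tested. The higher gene was Numb, an adaptor that inhibits Notch, whose groups overlapped (log2 fold change 0.29 ± 0.11, adjusted p = 0.0372 by edgeR). Numb was called in 9 of 17 alternatives. It was lost without control replicate 1, control replicate 2, control replicate 3, pressure replicate 1 or pressure replicate 2 (edgeR adjusted p 0.0537, 0.111, 0.107, 0.145 and 0.0999) and with library totals only (log2 fold change 0.08, adjusted p = 0.524). Without pressure replicate 3 the log2 fold change of Numb was 0.41 (adjusted p = 2.11e-05 by edgeR). Neurl3, a member of the Neuralized family of ubiquitin ligases, averaged 153 ± 29.1 CPM under pressure and 253 ± 13.9 CPM in control (log2 fold change -0.73 ± 0.12, adjusted p = 0.000285 by edgeR). Itch, a ubiquitin ligase of Notch, fell by 0.50 ± 0.11 on the log2 scale, Dtx4, a Deltex ligase, by 0.46 ± 0.11, and Numbl, a Numb-like adaptor, by 0.67 ± 0.17 (edgeR adjusted p 0.00205, 0.00274 and 0.00519). Nrarp, a feedback inhibitor and target of Notch chosen here after its values were seen, was at 32.0, 29.0 and 39.1 CPM in pressure replicates 1, 2 and 3, against 27.2, 27.3 and 29.2 CPM in control replicates 1, 2 and 3, and did not pass (log2 fold change 0.25 ± 0.12, adjusted p = 0.0728 by edgeR).

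Of the nuclear coactivators, 4 of 7 rose and 2 fell, against 33.7% and 35.1% of all genes tested. Maml1, a Mastermind protein of the RBPJ complex, was at 157, 144 and 107 CPM in pressure replicates 1, 2 and 3, against 70.9, 57.0 and 67.6 CPM in control replicates 1, 2 and 3. The groups did not overlap (log2 fold change 1.06 ± 0.14, adjusted p = 5.8e-05 by edgeR). Maml2 and Snw1, of which Snw1 bridges RBPJ and coregulators, had log2 fold changes of 0.55 ± 0.11 and 0.42 ± 0.07 (edgeR adjusted p 0.000943 and 0.000347). Kat2b, a histone acetyltransferase, averaged 25.6 ± 1.59 CPM under pressure and 46.3 ± 2.83 CPM in control (log2 fold change -0.85 ± 0.09, adjusted p = 1.57e-05 by edgeR).

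Of the nuclear corepressors, 4 of 11 tested genes rose and 1 fell, against 33.7% and 35.1% of all genes tested. Tle1, a Groucho corepressor used by HES proteins, was at 83.1, 72.5 and 65.3 CPM in pressure replicates 1, 2 and 3, against 34.7, 36.2 and 34.0 CPM in control replicates 1, 2 and 3, without overlap (log2 fold change 1.08 ± 0.10, adjusted p = 5.26e-06 by edgeR). Tle3, of the same family, moved the other way, with 37.2 ± 2.19 CPM under pressure and 64.9 ± 1.95 CPM in control (log2 fold change -0.80 ± 0.08, adjusted p = 1.05e-05 by edgeR). L3mbtl3, which joins RBPJ in repression, had a log2 fold change of 0.66 ± 0.13 (adjusted p = 0.000952 by edgeR).

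Few other ligands and repressors were detectable. None of the 4 other ligands was testable; Jag2 was the highest of them, at 0.491 to 0.872 CPM in pressure libraries and 0.198 to 0.8 CPM in control libraries, followed by Dlk2, at 0 to 0.243 CPM in pressure libraries and without a count in control libraries. Of the 8 other HES and HEY factors, only Hes6 was testable, at 11.1 ± 2.09 CPM under pressure and 12.8 ± 1.11 CPM in control (log2 fold change -0.21 ± 0.14, adjusted p = 0.206 by edgeR). Hes6 was called lower without pressure replicate 3 (-0.37, adjusted p = 0.0112 by edgeR) and with library totals only (-0.43, adjusted p = 0.0253 by edgeR). Hes2, Hes3, Hes5 and Helt had no count in any library. Hey2 reached at most 0.132 CPM and Heyl at most 0.661 CPM in any library.

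Of 12 tested endothelial and arterial genes tied to Notch, 5 rose and 6 fell, against 33.7% and 35.1% of all genes tested. Efnb2, the arterial ephrin, was at 307, 261 and 201 CPM in pressure replicates 1, 2 and 3, against 60.8, 59.8 and 61.7 CPM in control replicates 1, 2 and 3. Ephb4, its venous receptor, was at 76.2, 83.5 and 101 CPM in pressure replicates 1, 2 and 3, against 335, 351 and 316 CPM in control replicates 1, 2 and 3. The ephrin lay above the controls and the receptor below them in every pressure library (log2 fold changes 2.08 ± 0.13 and -1.94 ± 0.10, edgeR adjusted p 5.44e-07 and 1.99e-07). The SOXF factors of endothelium differed in direction: Sox17 averaged 129 ± 23.3 CPM under pressure and 27.8 ± 1.48 CPM in control, and Sox18 6.12 ± 1.69 CPM under pressure and 43.7 ± 3.73 CPM in control (edgeR adjusted p 2.72e-07 and 2.62e-07). Among genes singled out after their values were seen, the arterial connexins Gja4 and Gja5 had log2 fold changes of -1.61 ± 0.18 and -3.89 ± 0.45, and Nr2f2, a venous fate factor, -1.14 ± 0.10 (edgeR adjusted p 1.88e-05, 2.7e-05 and 3.01e-06). Gja5 was at 0.0608 to 0.246 CPM in pressure libraries and 1.52 to 2.67 CPM in control libraries. Its pressure values are near or below the level of 3 counts (0.182 to 0.245 CPM), so the size of its change is uncertain.

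**Figure D5:**
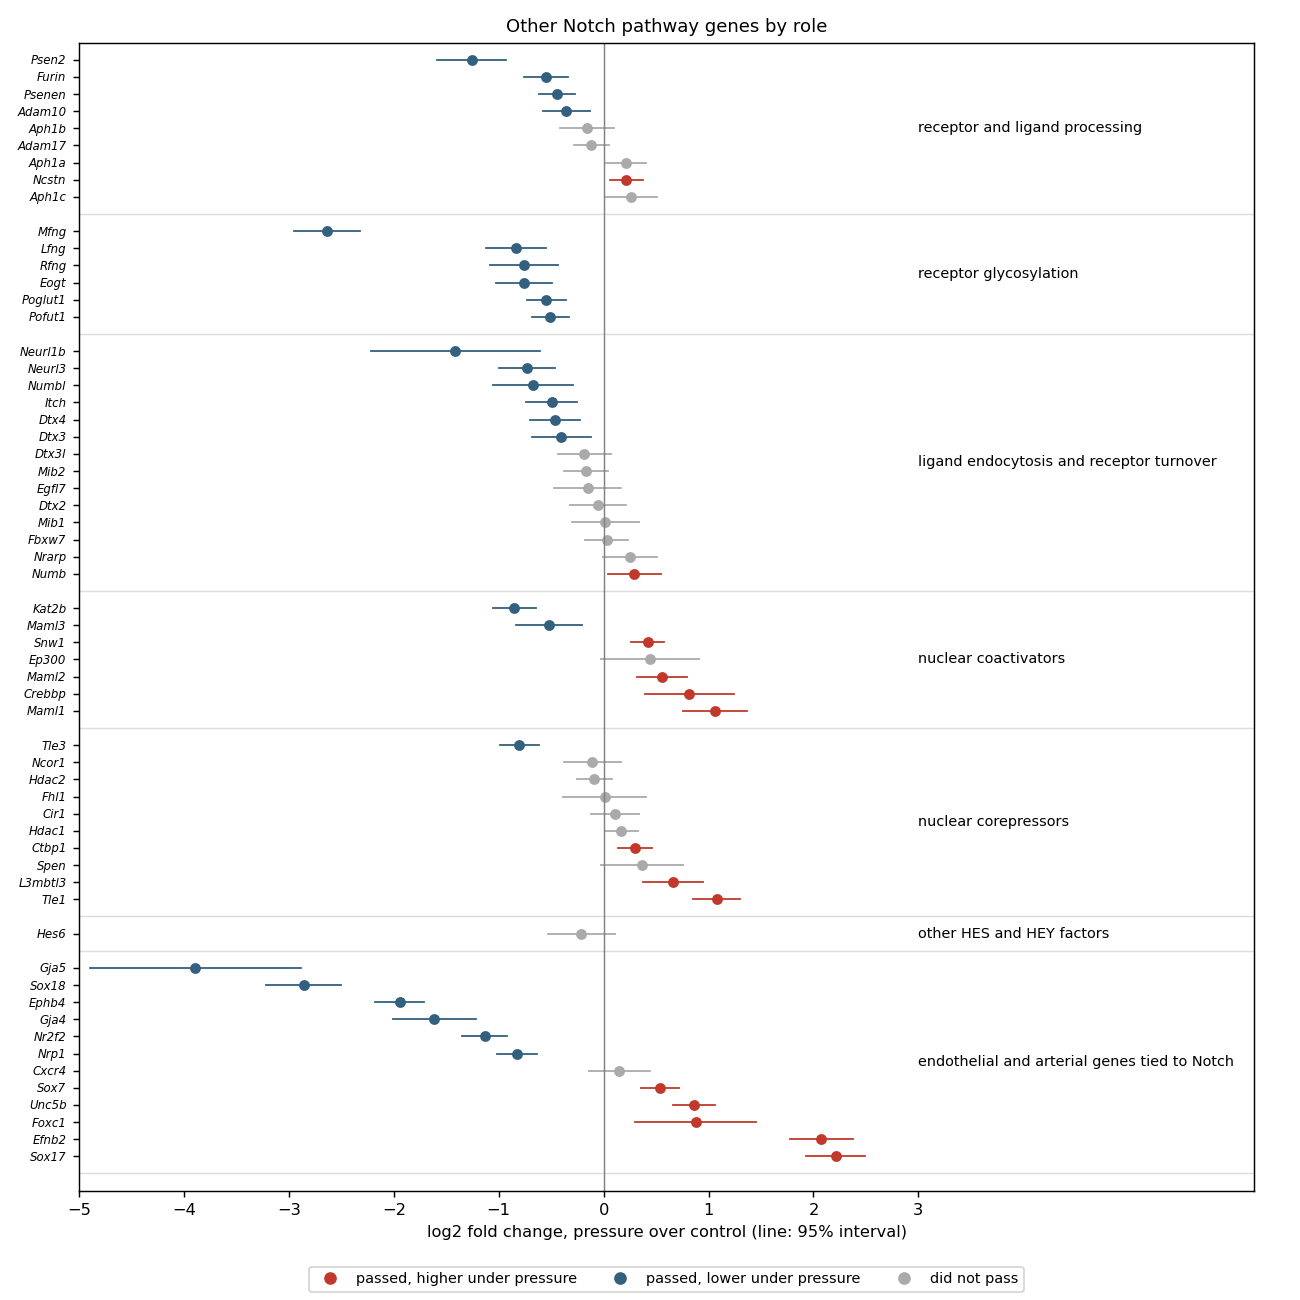
Log2 fold change of pressure over control with its 95% interval for 59 of the 61 tested pathway genes, grouped by role; red points passed as higher, blue points as lower and grey points did not pass. All 6 receptor glycosylation genes lie below 0, with Mfng at -2.63, while each other role with more than 1 tested gene holds genes on both sides.

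The genes most like Dll1 and Notch4 over the 6 libraries were ranked by Pearson correlation of log2(CPM + 0.5) among genes with a mean of at least 5 CPM. They share libraries and the difference between the groups, so the values are a description. For Dll1 these were Nrg1 (r = 0.9986), a neuregulin, Pnn (r = 0.9982), a splicing-associated protein, and Wdr46 (r = 0.9974), a nucleolar protein. For Notch4 they included Dkk3 (r = 0.9996), a secreted protein of the Dickkopf family, and Jup (r = 0.9994), the junction protein plakoglobin. Such likeness was common, since 14.8% of 10117 genes had r over 0.95 with Dll1 and 11% of 10116 genes with Notch4.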

How the data were processed

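Polyadenylated RNA of 6 samples was read with a stranded mRNA kit as single reads of 101 bases, per the labels' protocols. TopHat2 2.2.1, Cufflinks 2.2.1 and mm10 are named, without roles, per the submitters' processing notes; how reads were counted, with which strand setting and annotation, is not given in the sources used here. Expected counts were deposited by the authors per gene symbol, not whole for 18.22% to 21.67% of detected genes of a library. Counts were rounded, filtered with filterByExpr (minimum count 10, minimum total 15; 12892 genes, 99.94% of counts) and TMM-scaled. Groups, taken from the titles, were compared with edgeR 4.0.16 quasi-likelihood tests (R 4.3.3, two-sided, no covariates, Benjamini-Hochberg). Scripts were tested on simulated data.

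The members, lists and tests were chosen with earlier results of these data known. Named genes were all members, per list up to 4 called genes ranked by p (where none passed, the 2 highest by level), and the 3 genes most correlated with the members of largest rise and largest fall. Some genes that this takes in are not reported here. Alternatives were upper-quartile and RLE factors, library totals without factors, DESeq2 1.42.0, limma-voom (limma 3.58.1), other filters and thresholds, a replicate block, omission of the 50 most abundant genes or of a replicate, and, added after seeing the data, a length offset and transcript lengths. Lengths and coordinates come from GENCODE M21 (GRCm38), found for 98.46% of symbols, and start windows from RefSeq (GRCm38.p6). Share tests are exact permutation tests (scipy 1.17.1). The 7 marker lists were examined for cells of other types: lymphocyte markers summed to 1.88 to 3.12 CPM in pressure and 2.38 to 4.1 CPM in control libraries, hepatocyte markers to 14.2 to 17.5 CPM in pressure and 7.4 to 10.4 CPM in control libraries, and general endothelial markers to 5097 to 5698 CPM in pressure and 5435 to 5780 CPM in control libraries. Of the 9 general endothelial markers, 5 were called lower (Kdr, Erg, Tek, Tie1 and Eng), against 35.1% of all genes tested. None was called higher, and 4 were not called (Pecam1, Cdh5, Egfl7 and Emcn). Kdr averaged 126 CPM under pressure and 210 CPM in control, and Erg 111 CPM under pressure and 164 CPM in control.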

Additional observations from a re-analysis of the deposited data

How the results depend on the processing

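Notch4, Dll1 and Rbpj kept their direction and call wherever they were tested. The count of members called higher, 5 as reported, was 2 with upper-quartile factors, 2 with library totals only, 1 with a minimum mean of 5 CPM and 2 at a threshold of 0.01, and lay between 2 and 6 when a replicate was left out: 3 without control replicate 1, 2 without control replicate 2, 3 without control replicate 3, 2 without pressure replicate 1, 3 without pressure replicate 2 and 6 without pressure replicate 3. With library totals only, 2 members instead of 1 were called lower and Jag1 changed sign (-0.0094). Both scalings lower all fold changes. The filter at a mean of 5 CPM removed Dll1 and Hey1, and Notch1 and Notch2 then had edgeR adjusted p-values of 0.0533 and 0.0608. At the threshold of 0.01, Notch1, Notch2 and Hey1 were lost, with edgeR adjusted p-values of 0.0422, 0.04999 and 0.0435. The cause of the other moves was not tested. Without length scaling the share differences were 14.4 points for Notch1, 2.85 for Notch2, -17.2 for Notch4 and 6.86 for Dll1; with the longest coding transcript the difference for Notch2 was 3.23 points. No other share difference moved by more than the spread between replicates.

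Deviations of same-numbered samples from their group means correlated at 0.129, -0.23 and -0.134, and those of differently numbered samples at -0.17 to 0.292. With 3 samples per group, these values cannot show whether the replicate numbers pair the samples. With the replicate block, 4 members were called higher and 1 lower, against 5 and 1 without it, and 4069 and 4315 genes over the whole table. Depth limits Notch3, with 15 counts in all 6 libraries.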
